A study of Mus musculus with 2 samples.

Results

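The Ms4a genes encode the membrane-spanning 4-domain subfamily A proteins, and 7 of them were followed here in macrophage RNA: Ms4a4a, Ms4a4b, Ms4a4c, Ms4a6b, Ms4a6c, Ms4a6d and Ms4a7. They were picked by name from the deposited gene tables after each Entrez identifier had been matched to its mouse symbol, and they make up 7 of the 15605 genes listed. Each of the 7 had at least 50 estimated counts in its higher library, the minimum set for reading a ratio, so none was too low. One library came from wild type C57BL/6 mice and the other from C57BL/6 mice of the genotype lgmn-/-, which lack legumain, a lysosomal cysteine protease. The animals were 6 to 8 weeks old, and the labels do not say how many gave cells. In both groups the peritoneal macrophages, phagocytes washed from the abdominal cavity, were kept with EO771 cells, mammary carcinoma cells of the mouse, for 4 days, so neither library shows macrophages without carcinoma cells. Whether a membrane separated the cells was not given in the sources used here. With 1 library per genotype there is no spread between samples and no test, and every interval below is a 95% interval for counting error only. Such intervals say nothing of differences between mice.

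Ms4a proteins cross the membrane several times, with both ends inside the cell, and several of them act beside other receptors. The founding members are Ms4a1, the B cell antigen CD20, and Ms4a2, the beta chain of the high-affinity IgE receptor of mast cells. Ms4a4a is a macrophage protein that associates with the beta-glucan receptor Dectin-1, and human MS4A4A has been tied by genetics to the shedding of TREM2, a lipid-sensing receptor of macrophages and microglia. Ms4a7 and the Ms4a6 genes are typical of macrophages and monocytes, and Ms4a4b is best known from T cells, where it modulates activation.

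In GRCm38 coordinates, the build called mm10 in the submitters' processing notes, the RefSeq table places 21 Ms4a genes side by side on chromosome 19, from 10962289 to 11640851. The 7 genes lie in the order Ms4a7 (11321039 to 11336146), Ms4a4a (11375488 to 11392915), Ms4a4c (11404717 to 11427246), Ms4a4b (11443558 to 11463549), Ms4a6c (11469353 to 11487182), Ms4a6b (11518559 to 11530403) and Ms4a6d (11586606 to 11604804). Ms4a7 and Ms4a6d are read from the minus strand and the other 5 from the plus strand. In the GENCODE M21 transcripts compared, each of the 7 has 7 exons, 6 of them coding except in Ms4a7, where all 7 are. A coding exon of 57 bases is present in every one of the 7. Ms4a4b and Ms4a4c have the same coding exon lengths throughout, at 135, 120, 57, 126, 102 and 138 bases. The share of identical bases in aligned coding sequence was 91.7% for Ms4a4b and Ms4a4c, 85.8% for Ms4a6b and Ms4a6c, 81.2% for Ms4a6b and Ms4a6d, 68.2% for Ms4a4a and Ms4a4c, and 63.9% for Ms4a6b and Ms4a7.

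This likeness matters for the counts, because a short read from an identical stretch cannot be placed in 1 gene, so the closest pairs are shown. The first 75 coding bases of Ms4a4b (chr19:11449919-11449993, plus strand, coding exon 1) and of Ms4a4c (chr19:11414817-11414891, plus strand, coding exon 1) differ at 6 positions, printed in capitals.
Ms4a4b: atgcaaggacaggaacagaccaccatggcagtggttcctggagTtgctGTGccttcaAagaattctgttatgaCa
Ms4a4c: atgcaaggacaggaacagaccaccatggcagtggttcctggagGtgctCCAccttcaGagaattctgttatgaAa
The same first 75 bases of Ms4a6b (chr19:11520339-11520413, plus strand) and Ms4a6c (chr19:11471105-11471179, plus strand) differ at 13 positions.
Ms4a6b: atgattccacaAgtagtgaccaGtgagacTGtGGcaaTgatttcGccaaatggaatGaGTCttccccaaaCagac
Ms4a6c: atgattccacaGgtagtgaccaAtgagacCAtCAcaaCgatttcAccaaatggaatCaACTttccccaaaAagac
The longest coding stretch that Ms4a4b and Ms4a4c share without any difference is 127 bases. In Ms4a4b it covers coding bases 321 to 447, the last 118 bases of coding exon 4 (chr19:11459161-11459278) and the first 9 of coding exon 5 (chr19:11461257-11461265).
Ms4a4b: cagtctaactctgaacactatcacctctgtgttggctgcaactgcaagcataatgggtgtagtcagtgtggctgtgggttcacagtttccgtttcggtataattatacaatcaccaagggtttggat
Of all windows of 50 bases in the coding sequence, 12.4% in Ms4a4b and 13.7% in Ms4a4c occur unchanged in another Ms4a transcript compared (the 7 genes, Ms4a4d and Ms4a8a). The share was 6.73% in Ms4a6b, 5.78% in Ms4a6d, 0.997% in Ms4a6c and 0 in Ms4a4a and Ms4a7. With windows of 100 bases it was 4.84% in both Ms4a4b and Ms4a4c and 0 in the other 5 genes. The sources used here do not give the read length.

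The 7 genes spanned a wide range of levels. Levels are compared between genes as FPKM, the authors' value scaled to transcript length and to the mapped fragments of the library. Ms4a6d was the highest in the wild type library at an FPKM of 578, followed by Ms4a7 at 418, Ms4a6c at 191, Ms4a4c at 120, Ms4a6b at 64.8, Ms4a4a at 19.03 and Ms4a4b at 3.82. In the Lgmn knockout library Ms4a6d stood at 527.2, Ms4a7 at 526.8, Ms4a6c at 262, Ms4a6b at 115, Ms4a4c at 107, Ms4a4a at 40.6 and Ms4a4b at 11.2. Ms4a6d ranked 232nd among all genes in wild type and 228th in the knockout, above 98.4% and 98.5% of the listed genes.

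**Figure D1:**
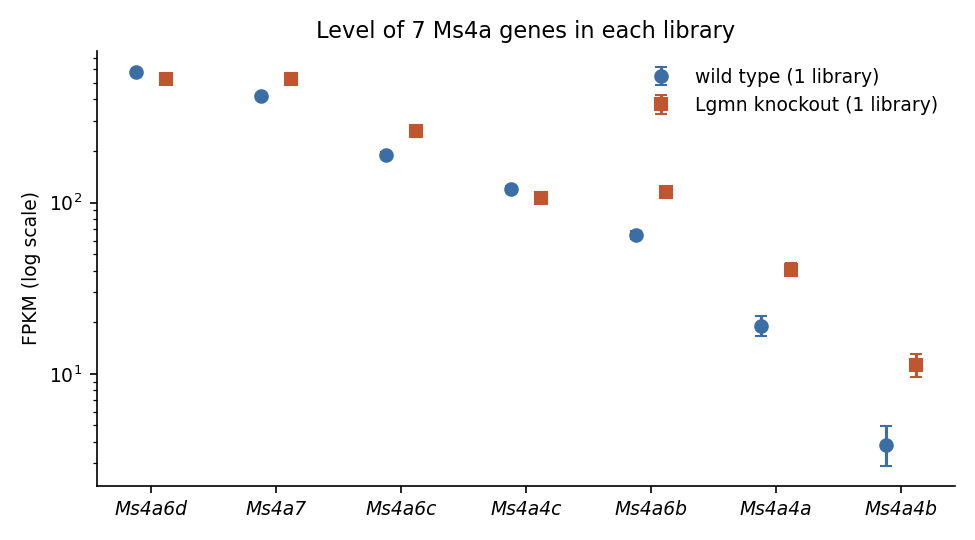
FPKM (vertical log axis) of the 7 Ms4a genes (horizontal axis) in the wild type library (circles) and the Lgmn knockout library (squares), 1 library each, with 95% counting intervals as bars. Ms4a6d and Ms4a7 are at the top in both libraries, Ms4a4b is at the bottom in both, and Ms4a4c and Ms4a6b exchange places.

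The order of the levels was the same in both libraries except for 1 exchange, with Ms4a4c above Ms4a6b in wild type and below it in the knockout. Ms4a6d and Ms4a7 were apart in the wild type library, with counting intervals of 566 to 590 and 408 to 428. In the knockout library they were not told apart, at 516 to 538 for Ms4a6d and 515 to 538 for Ms4a7. Ms4a6b and Ms4a4c also had overlapping intervals there, at 110 to 120 and 102 to 111, while in the wild type library they were 61.3 to 68.4 and 116 to 125. The highest gene exceeded the lowest 151 times in wild type and 47.0 times in the knockout.

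Between the libraries, Ms4a4b, Ms4a4a and Ms4a6b were higher in the knockout library, Ms4a6c and Ms4a7 were higher by less, and Ms4a6d and Ms4a4c were lower by less than 2-fold. Ratios were taken on estimated counts scaled by TMM, a factor that sets most genes equal between libraries. Of the 7 genes, 1 was at least 2-fold higher, against 6.05% of all 9498 genes with enough counts, and 0 were at least 2-fold lower, against 1.74%. Ms4a4a joined Ms4a4b past 2-fold with library totals, with deposited FPKM and with the length trend described below subtracted at the deposited lengths. With a minimum of 200 counts Ms4a4b dropped out. Over all genes the numbers higher and lower were 575 and 165, and they were 1036 and 107 with library totals, 936 and 102 with FPKM, and 203 and 180 with the length trend subtracted. At least 1.5-fold higher were 3 of the 7, Ms4a4a, Ms4a4b and Ms4a6b, against 16.4% of all genes, and 0 were at least 1.5-fold lower, against 6.39%. The median log2 ratio of the 7 was 0.27, with 5 above 0, and that of all genes tested was -0.00061.

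Ms4a4b had 58.13 estimated counts in wild type and 168.39 in the knockout, and it was 2.49-fold higher in the knockout (1.83 to 3.41). It is the gene with the fewest counts of the 7 and the only one past 2-fold with TMM scaling. Its near-copy Ms4a4c, which has been described in myeloid cells, had 2480.86 counts in wild type and 2171.78 in the knockout, 1.33-fold lower (1.26 to 1.41). Ms4a4c thus held 42.7 times the counts of Ms4a4b in wild type and 12.9 times in the knockout. RSEM, named in the submitters' processing notes, assigns reads that fit several genes by estimated shares. The split between the pair is therefore an estimate in both libraries, and the ratio of Ms4a4b rests on it. The counts of Ms4a4b and Ms4a4c summed, which do not depend on the division between them, were 1.26-fold lower in the knockout library (1.20 to 1.34) with TMM. With library totals the ratio of that sum, knockout over wild type, was 0.93. Ms4a4c holds most of the summed counts, so the sum cannot show the direction of Ms4a4b.

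Ms4a4a had 223.28 counts in wild type and 469.86 in the knockout, 1.81-fold higher (1.54 to 2.13). It shared no 50-base coding window with the genes compared, and its longest run identical to another of them was 16 bases, with Ms4a4c and likewise with Ms4a4d. Its untranslated bases were not compared. Its estimated counts were fractional, as were those of 20.3% of the genes listed in wild type, so they may include divided reads. Ms4a4d, the fourth gene of its kind, had 2.01 and 1.01 counts, too few for a ratio. The Ms4a4 genes summed, from 2764 to 2811 counts, were 1.15-fold lower (1.09 to 1.21) with TMM and 1.03-fold higher with library totals, so the direction of that sum turned with the scaling.

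Among the Ms4a6 genes, Ms4a6b went from 1307.35 counts in wild type to 2289.86 in the knockout, 1.503-fold higher (1.40 to 1.61). Ms4a6c went from 2608.6 to 3674.71, 1.21-fold higher (1.15 to 1.27). Ms4a6d, described as a partner of the complement receptor Vsig4 and a restraint on the inflammasome, went from 9644.31 to 8675.31, 1.30-fold lower (1.26 to 1.33). The intervals of the first pair lie above 1 and that of Ms4a6d below it, so these neighbours stood on opposite sides of equality. Ms4a6b and Ms4a6c summed were 1.31-fold higher (1.25 to 1.36). With Ms4a6d added, the sum was 1.08-fold lower (1.05 to 1.11) with TMM and 1.09-fold higher with library totals. For Ms4a6c the files list 2 transcripts, and the authors' mean transcript length was 1156.15 bases in wild type and 1197.85 in the knockout, 3.61% longer. A difference of at least that size, in either direction, was present in 8.69% of 3187 genes with several transcripts.

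Ms4a7, a gene of mature tissue macrophages, had 6627.97 counts in wild type and 8242 in the knockout, 1.07-fold higher (1.03 to 1.10). It took 30.0% of the summed FPKM of the 7 genes in wild type and 33.1% in the knockout. The share of Ms4a6d went from 41.4% to 33.2%, that of Ms4a6b from 4.65% to 7.24% and that of Ms4a4c from 8.63% to 6.72%. All 7 genes together held 0.193% of the estimated counts of the wild type library and 0.219% of the knockout library. Their sum was 1.04-fold lower (1.02 to 1.06) with TMM and 1.13-fold higher with library totals, and their summed FPKM went from 1394 to 1589.9.

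**Figure D2:**
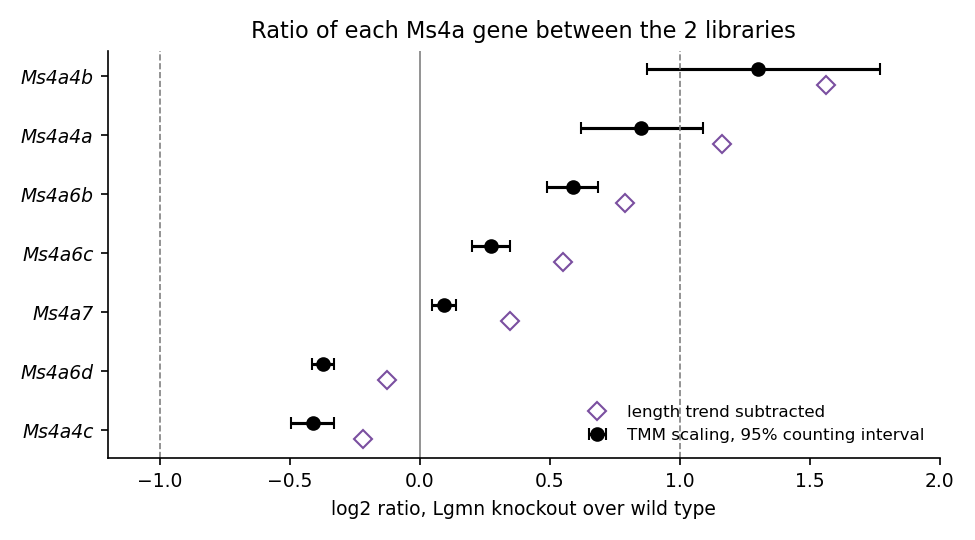
Log2 ratio of knockout over wild type (horizontal axis) for each Ms4a gene (vertical axis), with TMM scaling and its 95% counting interval (filled circles with bars) and with the length trend subtracted (open diamonds); dashed lines mark 2-fold. The trend was taken at the deposited lengths. Ms4a4b lies beyond 2-fold with both, Ms4a4a with the length trend subtracted, and Ms4a4c and Ms4a6d lie below 0 with both.

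Transcript length moved with these ratios and bears on all 7 genes, whose transcripts are short by the deposited lengths. Over all genes tested the log2 ratio followed length, and Spearman's rho over the genes was 0.609. Genes are not independent replicates. The 7 genes have deposited mean transcript lengths between 996 and 1723 bases. Of 1579 genes tested with lengths in that range, 1.27% passed 2-fold upwards and 2.28% downwards, with a median log2 ratio of -0.26. The trend at the lengths of the 7 genes ran from -0.31 for Ms4a4a to -0.20 for Ms4a4c. For Ms4a4b the trend of -0.26 was taken at the deposited 1282 bases, while its GENCODE transcript compared above has 4750. At 4718 bases, the length of Oas3, the trend was 0.36. Subtracting that value in place of -0.26 would leave Ms4a4b below its unadjusted log2 ratio of 1.30 and under 2-fold. Its adjusted value and its place past 2-fold therefore depend on the length used. With the trend subtracted, the log2 ratio was 1.56 for Ms4a4b, 1.16 for Ms4a4a, 0.79 for Ms4a6b, 0.55 for Ms4a6c, 0.35 for Ms4a7, -0.13 for Ms4a6d and -0.22 for Ms4a4c. Without it these values were 1.30, 0.85, 0.59, 0.27, 0.09, -0.37 and -0.41. After subtraction at the deposited lengths 2 of the 7 were at least 2-fold higher, against 2.14% of all genes tested. Lower were 0, against 1.90%. Ms4a4b then stood above 99.4% of the genes tested, Ms4a4a above 98.7%, Ms4a6b above 95.8% and Ms4a6c above 91.1%.

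**Figure D3:**
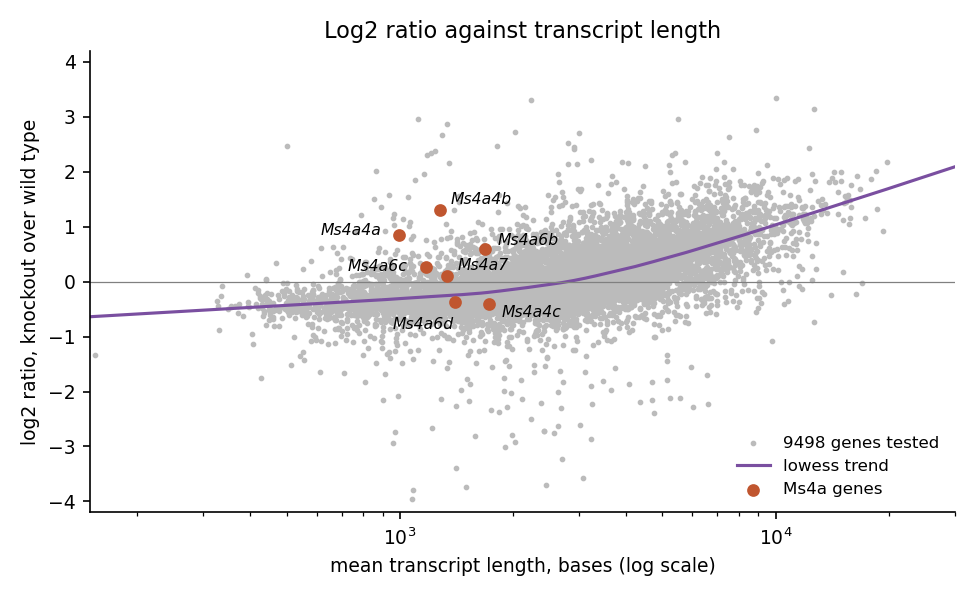
Log2 ratio of knockout over wild type (vertical axis) against mean transcript length in bases (horizontal log axis) for the 9498 genes tested (grey), with the lowess trend (line) and the 7 Ms4a genes (labelled points); 6 genes lie outside the axes. Ms4a4a, Ms4a4b, Ms4a6b, Ms4a6c and Ms4a7 lie above the trend at their length, and Ms4a4c and Ms4a6d lie below it.

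Position in the cluster did not order the ratios. From Ms4a7 upwards the log2 ratios were 0.09, 0.85 for Ms4a4a, -0.41 for Ms4a4c, 1.30 for Ms4a4b, 0.27 for Ms4a6c, 0.59 for Ms4a6b and -0.37 for Ms4a6d, so Ms4a4c, with a lower value, lies between the genes with the highest ratios. Within 1 Mb of the outer ends of the cluster the RefSeq table holds 117 other genes, of which 27 were tested. Of these 27, 2 were at least 2-fold higher, near the 6.05% of all genes tested, and 0 were lower, against 1.74%, with a median of 0.04. AW112010 (11047612 to 11050566), an interferon-inducible transcript that lies inside the cluster, had 3795 and 10267 counts, 2.32-fold higher in the knockout library (2.24 to 2.41). Ccdc86 (10941481 to 10949266), a nucleolar protein gene beside the cluster, was 2.13-fold higher (1.86 to 2.45). Dagla, which makes the endocannabinoid 2-AG, had 24 and 54 counts and was 1.93-fold higher (1.17 to 3.26). It reached the minimum only in the knockout library, and its log2 ratio of 0.92 was 0.41 with the length trend described above subtracted.

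**Figure D4:**
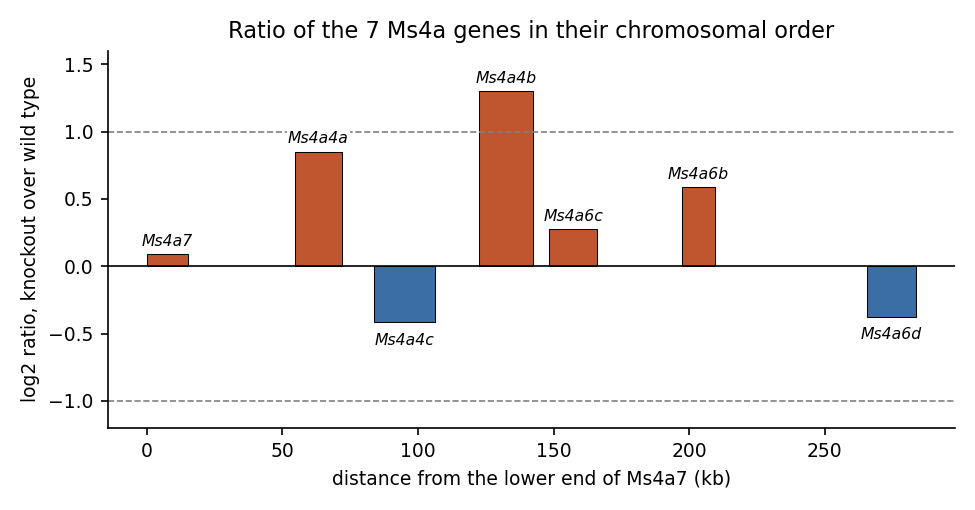
Log2 ratio of knockout over wild type (vertical axis) for the 7 Ms4a genes, drawn as bars over the span of each gene and placed by distance in kb from the lower end of Ms4a7 (horizontal axis); dashed lines mark 2-fold. Bars above 0 (Ms4a7, Ms4a4a, Ms4a4b, Ms4a6c, Ms4a6b) and below 0 (Ms4a4c, Ms4a6d) are interspersed along the cluster.

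The promoters of the close pairs are alike as well, and they are shown because Ms4a4b and Ms4a4c differ in direction and level. RefSeq promoters of GRCm38.p6 were given for 6 of the 7 genes, with a second one for Ms4a7, and not for Ms4a6d. Ms4a4b and Ms4a4c were identical at 77.9% of 289 aligned promoter bases, and Ms4a6b and Ms4a6c at 85.3% of 225. The alignments held 22 gap bases for the Ms4a4 pair and 150 for the Ms4a6 pair. The Ms4a6 pair therefore aligned over less of the promoter, with 192 identical bases against 225. The stretch from 100 bases before the start site to 50 after it is printed for Ms4a4b (chr19:11443458-11443607, plus strand) and Ms4a4c (chr19:11407561-11407710, plus strand), with capitals for GAGGAA, the core that the macrophage factor PU.1 binds.
Ms4a4b: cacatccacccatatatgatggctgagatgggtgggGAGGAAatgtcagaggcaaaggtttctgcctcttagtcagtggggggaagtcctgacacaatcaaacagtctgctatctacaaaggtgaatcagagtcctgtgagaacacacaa
Ms4a4c: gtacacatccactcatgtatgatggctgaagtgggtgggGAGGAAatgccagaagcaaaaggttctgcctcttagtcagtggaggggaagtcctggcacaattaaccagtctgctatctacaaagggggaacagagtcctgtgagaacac
GAGGAA starts 64 bases before the start site in Ms4a4b and 61 before it in Ms4a4c, on the gene's strand in both. Over 7 promoters of the genes, 250 bases before to 50 after the start site and both strands, 3 held GAGGAA (Ms4a4b, Ms4a4c and 1 of Ms4a7), against 28.3% of 32851 RefSeq promoters. None of the 7 held an interferon-stimulated response element, searched as GAAA, any 2 bases and GAAA again, against 3.44% of all promoters, and none held TTCNNNGAA, those of a STAT site, against 8.30%. The 3 motifs do not contain one another, and a match describes letters only.

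Beyond the 7 genes, Ms4a8a was the only other Ms4a gene with enough counts for a ratio. Ms4a8a (11067471 to 11081103), described in alternatively activated and tumour-associated macrophages, had 861 and 757 counts and an FPKM of 65.2 and 58.2, 1.33-fold lower in the knockout library (1.20 to 1.46). Ms4a1 had 3 and 6 counts and Ms4a4d 2.01 and 1.01, both too low. The other 11 of the 21 genes, Ms4a2 and Ms4a3 among them, were listed in neither file. Tmem176a and Tmem176b, relatives on chromosome 6 that form intracellular cation channels in dendritic cells, were lower. Tmem176a had 129 and 62 counts, 2.43-fold lower (1.78 to 3.34), a log2 ratio of -1.26 that was -0.97 with the length trend subtracted, and Tmem176b 245 and 166, 1.72-fold lower (1.41 to 2.11).

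Receptors and adaptors that Ms4a proteins work beside lay between the thresholds. Of 13 genes of Trem2 and Dectin-1 signalling, 0 were at least 2-fold higher, against 6.05% of all genes tested, and 0 were lower, against 1.74%. With shares that low, a list of this size can hold 0 by its size alone. The median log2 ratio of the 13 was 0.50, and it was 0.18 with the length trend subtracted. Trem2 itself had 19215 and 15002 counts, 1.49-fold lower (1.46 to 1.53). Clec7a, which encodes Dectin-1, had 16672 and 26617, 1.37-fold higher (1.34 to 1.40), and Tyrobp, the adaptor of Trem2, had 19948 and 20799. The direction of Tyrobp turned with the setting, with a log2 ratio of -0.16 with TMM and 0.24 with the length trend subtracted, and an FPKM of 2968 and 3139. With TMM alone, Pik3cg, Plcg2 and Adam17 had the largest ratios of this list, at 1.79-fold, 1.59-fold and 1.57-fold higher. Their transcripts are long, and with the length trend subtracted their log2 ratios of 0.84, 0.67 and 0.65 became 0.18, 0.38 and 0.33, while Card9, a signalling adaptor of Dectin-1, and Clec7a had the largest, at 0.78 and 0.57. Of 11 genes of Fc receptor signalling 0 passed 2-fold in either direction, against the same shares of all genes, with a median of 0.16. Fcer1g, the common gamma chain, had a log2 ratio of -0.02. Inpp5d and Lyn, regulators of that pathway, were 1.55-fold and 1.41-fold higher. Of 12 tetraspanins, a separate family of multi-pass membrane proteins, 1 was 2-fold or more lower, against 1.74% of all genes tested. That much higher were 0 of the tetraspanins, against 6.05%. Their median of -0.36 lay between -0.36 and -0.12 over the alternatives. That gene was Cd81, at 2.40-fold lower, and Tspan3 and Tspan13 were 1.71-fold and 1.70-fold lower.

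Stimuli known to raise Ms4a genes in macrophages were followed through other genes they raise. Of 8 glucocorticoid-induced genes tested 0 were at least 2-fold higher, against 6.05% of all genes tested, and 1 was lower, against 1.74%. Their median was -0.53. Dusp1, a MAP kinase phosphatase, was 2.02-fold lower with TMM. With the length trend subtracted its log2 ratio of -1.01 became -0.86, so that 0 genes of the list passed 2-fold. The genes Tsc22d3 and Anxa1, both anti-inflammatory, were 1.81-fold and 1.63-fold lower. Of 7 genes raised by interleukin 4, 1 was higher, Tgm2 at 2.39-fold, against 6.05% of all genes tested. Lower were 2, against 1.74%, Chil3 at 3.71-fold and Retnla at 2.12-fold. With the length trend subtracted 1 was lower, since Retnla moved from -1.06 to -0.66. The list's median of 0.21 was -0.23 with the length trend subtracted, so its sign depended on that setting. Of 34 interferon-stimulated genes 6 passed 2-fold upwards, against 6.05% of all genes tested, and 0 downwards, against 1.74%. Their median was 0.45, with 23 of the 34 above 0. Cxcl10, Iigp1 and Cxcl9 had the largest ratios, at 7.90-fold, 6.52-fold and 5.48-fold higher. Cxcl10 (44 and 405 counts) and Cxcl9 (26.05 and 166.29) reached the minimum only in the knockout library. Others were lower, with log2 ratios of -0.43 for Usp18, -0.32 for Xaf1 and -0.29 for Bst2.

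Markers of cell types that hold Ms4a genes differed between the libraries, and in bulk RNA a smaller number of cells of a type cannot be told apart from less RNA per cell. The macrophage markers were abundant in both, with a summed FPKM of 26955 and 30177. Of 14 tested 2 were at least 2-fold higher, among them Mertk at 2.35-fold, against 6.05% of all genes tested. Lower were 0, against 1.74%, and 10 of the 14 were above a log2 ratio of 0. Csf1r, the receptor that sustains macrophages, was 1.95-fold higher. Cd68, a lysosomal glycoprotein, had 77259 and 55334 counts and was 1.63-fold lower, and Lyz2, Fcgr1 and Cd14 had log2 ratios of -0.32, -0.32 and -0.11. All 19 T and NK cell markers were listed, with a summed FPKM that went from 175 to 330. Most of that sum came from 2 granzyme genes, Gzma (FPKM 91.25 and 164.26) and Gzmb (46.17 and 89.41). They were 1.52-fold and 1.64-fold higher with TMM, so the sum says little of the other markers. Of the 11 tested, 5 passed 2-fold upwards, against 6.05% of all genes tested, and 0 downwards, against 1.74%. Klrd1 (29 and 139 counts), Klrb1c (22.85 and 106.87), Lck (31 and 74), Cd3d and Cd3g reached the minimum only in the knockout library. Among the markers too low for a ratio, Cd5 (11 and 6) and Cd8b1 (12.04 and 6.75) had fewer counts there and the others more. The minimum therefore shaped these numbers. The median of the 11 was 0.71. The natural killer receptor genes Klrd1 and Klrb1c were 4.11-fold and 3.99-fold higher, and Il2rb, a receptor chain of both cell types, 2.13-fold. Of the T cell receptor chains, Cd3d had 22.27 and 54.34 counts, Cd3e 2 and 7, and Cd3g 36 and 50. Most of the T and NK cell markers were higher in the same library as Ms4a4b, a gene of T cells, and their part in its ratio was not tested. Of 9 monocyte markers 8 were tested, 1 was higher, Ccr2 at 3.13-fold, against 6.05% of all genes tested. Lower was 1, Chil3, against 1.74%. Ccr2 (28.14 and 101.53 counts) reached the minimum only in the knockout library. Plac8 had 462 and 269 counts and lay at the threshold, 2.002-fold lower as a plain ratio and just short of 2-fold with the 1 count added for the calls. With the length trend subtracted 2 were lower, Chil3 and Fn1, the latter with a log2 ratio of -1.197 against -0.38 before. The summed FPKM of the monocyte markers went from 102 to 88.7, while Ly6c2, the antigen of classical monocytes, had 188.44 and 258.4 counts. Their part in the ratios of the Ms4a4 and Ms4a6 genes was not tested. Of the B cell markers 5 of 10 were listed in neither file, and of the mast cell markers Tpsb2 had 50 and 57 counts and Fcer1a was not listed. Of 8 fibroblast markers tested 7 were at least 2-fold lower, against 1.74% of all genes tested. The summed FPKM over the 10 listed went from 92.0 to 27.6, and Tagln, Acta2 and Col1a2 were 7.07-fold, 6.85-fold and 4.41-fold lower. Of 8 epithelial carcinoma markers, Epcam had 1 and 2 counts and Krt19 67 and 4. Of the 6 dendritic cell markers listed of 8, only 1 was tested. It was Clec9a, 4.88-fold higher with 13 and 74 counts, so it reached the minimum only in the knockout library. The others were too low for a ratio, among them Xcr1 with 6.12 and 23.28 counts, Batf3 with 27 and 28 and Zbtb46 with 7 and 6. Of 8 neutrophil markers 2 were tested, S100a8 with 361 and 456 counts and Csf3r with 241.27 and 515.44. Neither passed 2-fold, against 6.05% of all genes tested upwards and 1.74% downwards.

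Across the 2 libraries, the genes whose pair of log2 FPKM values lay nearest to that of Ms4a4b were Myo9b, a myosin, at a distance of 0.075, Gimap4, a GTPase of lymphocytes, at 0.080, and Man2a1, a Golgi mannosidase, at 0.097. Gimap4 had 62 and 179 counts, close to the 58.13 and 168.39 of Ms4a4b. A pattern over 2 libraries is a single ratio and a level, so many genes can lie near.

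The libraries were alike in depth, with 11885784 estimated counts over 14681 genes in wild type and 11740202 over 14756 in knockout. Lgmn, the deleted gene, had 23550 and 426 counts, 64.4-fold lower in the knockout library (58.6 to 71.1), so the order of the libraries matches their labels. Scaling by library totals in place of TMM moved the median log2 ratio of all genes tested by 0.24, and the changes of the 7 genes are given relative to the TMM scale. With totals the log2 ratios were 1.54 for Ms4a4b, 1.09 for Ms4a4a and 0.83 for Ms4a6b, and -0.17 for Ms4a4c and -0.13 for Ms4a6d.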

How the data were processed

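RNA of peritoneal macrophages was sequenced on BGISEQ-500, per the labels' protocols, 1 library for each genotype label. The deposited files give estimated counts and FPKM per Entrez gene and the mean transcript length in bases (another value, also deposited), per the file headers. FPKM is the authors' own scaling. The submitters' processing notes name HISAT2, Bowtie2, RSEM and mm10, and give neither roles nor versions. How strand was handled was not given in the sources used here, and genes that overlap or run antisense cannot be told apart.

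A gene missing from a file was treated as without counts there. Of 15605 identifiers, 15561 were matched to symbols in RefSeq's GRCm38.p6 table. Estimated counts were rounded and scaled by TMM (edgeR 4.0.16, R 4.3.3), with factors of 0.921 (wild type) and 1.09 (knockout). Each log2 ratio, knockout over wild type, had 1 scaled count added, and folds had none. Genes needed 50 estimated counts in the higher library. Intervals of a fold are exact Clopper-Pearson intervals at 95% of the knockout share, and those of an FPKM exact Poisson intervals. Both cover counting error alone. PCR reads lacking molecular identifiers are not independent molecules, so the intervals can be too narrow even for that. They also take the estimated counts as observed and leave out error in dividing reads between genes. The length trend was a lowess fit with a span of 0.3. Coding sequences were aligned with Biopython 1.88. The members, lists and alternatives were chosen with earlier results of these data known. Named genes were the 7 members, their listed relatives, Lgmn, defining markers, the 3 tested genes per list whose ratios were largest, and the 3 genes nearest in FPKM to the member with the largest ratio. Trem2, Clec7a, Tyrobp and Fcer1g were added as the partners their lists are named for. Alternatives were library totals, size factors of DESeq2 1.42.0, FPKM with 0.1 added, other pseudocounts, minimums and thresholds, thinning and sums over similar copies. Calculations were tested on simulated data, with scipy 1.17.1, numpy 2.4.6, matplotlib 3.10.9, statsmodels 0.14.6, pandas 2.3.3 and Python 3.11.15. Protein sequences were not used here. Values of some single genes on these lists are not reported here.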

Additional observations from a re-analysis of the deposited data

How the results depend on the processing

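Each of the 7 genes kept the sign of its log2 ratio under all 8 alternatives of scaling, pseudocount, length and depth. Ms4a4b ranged from 1.25 to 1.56, Ms4a4a from 0.84 to 1.16 and Ms4a6b from 0.59 to 0.83. The length alternative used the deposited lengths, and with its longer GENCODE transcript Ms4a4b would fall below this range and under 2-fold. When counts were summed over the Ms4a4 genes, where Ms4a4c holds most of the counts, the ratio was -0.20, opposite in sign to Ms4a4b (1.30) and Ms4a4a (0.85). Summed over the Ms4a6 genes it was -0.11, opposite in sign to Ms4a6b (0.59) and Ms4a6c (0.27). The number of members at least 2-fold higher, 1, became 2 with library totals, with deposited FPKM and with the length trend subtracted, 0 with a minimum of 200 counts, 3 at 1.5-fold and 0 at 4-fold. The number at least 2-fold lower was 0 in every alternative run. Over all genes, 575 were higher and 165 lower. Library totals gave 1036 and 107, and FPKM 936 and 102. The length trend gave 203 higher. Minimums of 10, 200 and no counts gave 921, 273 and 1458 higher and 436, 67 and 1531 lower. Thresholds of 1.5-fold and 4-fold gave 1562 and 40 higher and 607 and 45 lower. The order of levels was the same with counts per kilobase. No paired analysis was possible because each genotype has 1 library. Depth limits Ms4a4b most, and no value here bears on variation between mice.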
